A study of Mus musculus with 8 samples.

Results

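The genes described here encode the nuclear-encoded subunits of the mitochondrial respiratory chain and of ATP synthase, together with the assembly factors of complex I that share its gene symbols. They were taken by name as every gene whose symbol starts with Nduf, Uqcr, Atp5 or Cox followed by a digit from 4 to 8, plus Sdha, Sdhb, Sdhc, Sdhd and Cyc1, which gave 90 of the 19938 genes tested. The 90 comprised 34 subunits and 7 assembly factors of complex I, 4 subunits of complex II, 9 of complex III, 19 of complex IV and 17 of complex V. Ndufa4 and its homologue Ndufa4l2 were counted with complex IV, to which the Ndufa4 protein is now assigned. Cox7c and Ndufb4 had only probe sets that carry several gene symbols and were not analysed here.

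The study used mouse aortic smooth muscle cells (strain C57Bl6, primary, passage 3 to 4), kept in DMEM containing 10% FCS over 24 h. Of the 8 samples, 4 were controls without jasplakinolide and 4 received it at 100 nM, and the RNA of each was hybridised to 1 Affymetrix array. Jasplakinolide is a compound from a marine sponge that stabilises actin filaments. Values are log2 expression levels made with RMA, which corrects the background, equalises the distributions of the arrays and summarises the probes of a probe set. Levels of different genes come from different probes, so they are set only against the general range of dim signal and not ranked against each other.

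The respiratory chain passes electrons from NADH (complex I) and succinate (complex II) through ubiquinone, complex III and cytochrome c to complex IV, which reduces oxygen. Complexes I, III and IV pump protons out of the mitochondrial matrix, and ATP synthase, complex V, lets them return and makes ATP. Most subunits are encoded in the nucleus, a few in mitochondrial DNA, and their nuclear genes are known to be controlled in common by the transcription factors NRF1 and GABPA and the coactivators of the PGC-1 family. Smooth muscle cells of large arteries use both glycolysis and respiration for their ATP.

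The cells were checked against marker lists. The contractile smooth muscle markers were present and 6 of 10 rose (limma adjusted p under 0.05, passed by 0.772% of all genes tested). Myocd, Smtn, Cald1 and Des did not pass, and Des had a lower mean with jasplakinolide. The list's mean level was 10.43 to 10.57 log2 on control and 10.87 to 11.07 on jasplakinolide arrays. Endothelial markers were present as well in these samples labelled as smooth muscle, with control means of 13.17 for Cdh5 (VE-cadherin) and 12.48 for Pecam1. The endothelial list's mean level was 11.36 to 11.41 on control and 11.08 to 11.25 on jasplakinolide arrays, and 1 of its 10 genes fell, Robo4, by 0.41 ± 0.06 (SE). With the replicate number as a block 3 of the 10 passed, against 1.89% of all genes. These were Robo4, Kdr and Tek, with limma adjusted p-values of 0.0205, 0.0425 and 0.0354. As a measure of dim signal, 1027 olfactory receptor genes had a 95th percentile of 6.76 log2 over their means. Above it lay 10 of 10 smooth muscle and 10 of 10 endothelial markers, 6 of 6 of macrophages, 4 of 6 of adventitial fibroblasts, 3 of 5 of white and 1 of 5 of brown adipocytes, and 6 of 8 of striated muscle. The part of other cell types in the levels of the 90 genes was not tested. Array medians still differed after RMA, from 7.30 to 7.39 log2, and arrays correlated at 0.991 to 0.997. Whether the replicates of a group came from separate cultures or animals is not stated in the labels, so p-values reflect only how far these arrays scatter, which could be technical, and 4 arrays per group limit the precision.

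Of the 90 genes, 0 passed the test for a difference between jasplakinolide and control (limma, Benjamini-Hochberg adjusted p under 0.05), where 0.772% of all genes tested did. With the replicate number as a block 0 passed, where 1.89% of all genes did. At an unadjusted p under 0.05 the count was 1 of 90 (Atp5k), against 8.87% of all genes, and the lowest adjusted p among the 90 was 0.544. The median log2 difference of the 90 was 0.031, that of all genes 0.012, and the 90 single values ran from -0.079 (Cox6b2) to 0.17 (Ndufb2). In these bulk samples, a change in the number of cells of a type and a change in RNA per cell cannot be told apart.

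The intervals were narrow. The 95% interval of the difference lay wholly between -0.25 and 0.25 on the log2 scale for 82 of the 90 genes, compared with 64.8% of all genes and 73.8% of the brighter 50% of all genes. It lay within 1.5-fold in either direction for all 90, as it did for 98.7% of all genes. The highest upper bound, that of Ndufb2, was 0.36 (1.28-fold higher) and the lowest lower bound, that of Cox6a2, was -0.28 (1.21-fold lower). Each interval is for 1 gene and is not adjusted for the number of genes. The median residual SD of the 90 genes was 0.057 log2, that of all genes 0.099 and that of the brighter 50% of all genes 0.077. On the same arrays the smooth muscle marker Cnn1 (calponin) rose by 1.34 ± 0.07 (SE, limma adjusted p = 0.0002536), a difference beyond every bound among the 90. Cnn1 had the highest difference of its marker list and the lowest adjusted p of all genes tested. Tagln, Lmod1, Myh11 and Actg2 (0.55 to 0.93) also lay beyond these bounds. Acta2 (0.25), Cald1 (0.13), Myocd (0.13), Smtn (0.10) and Des (-0.16) lay within them.

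**Figure D1:**
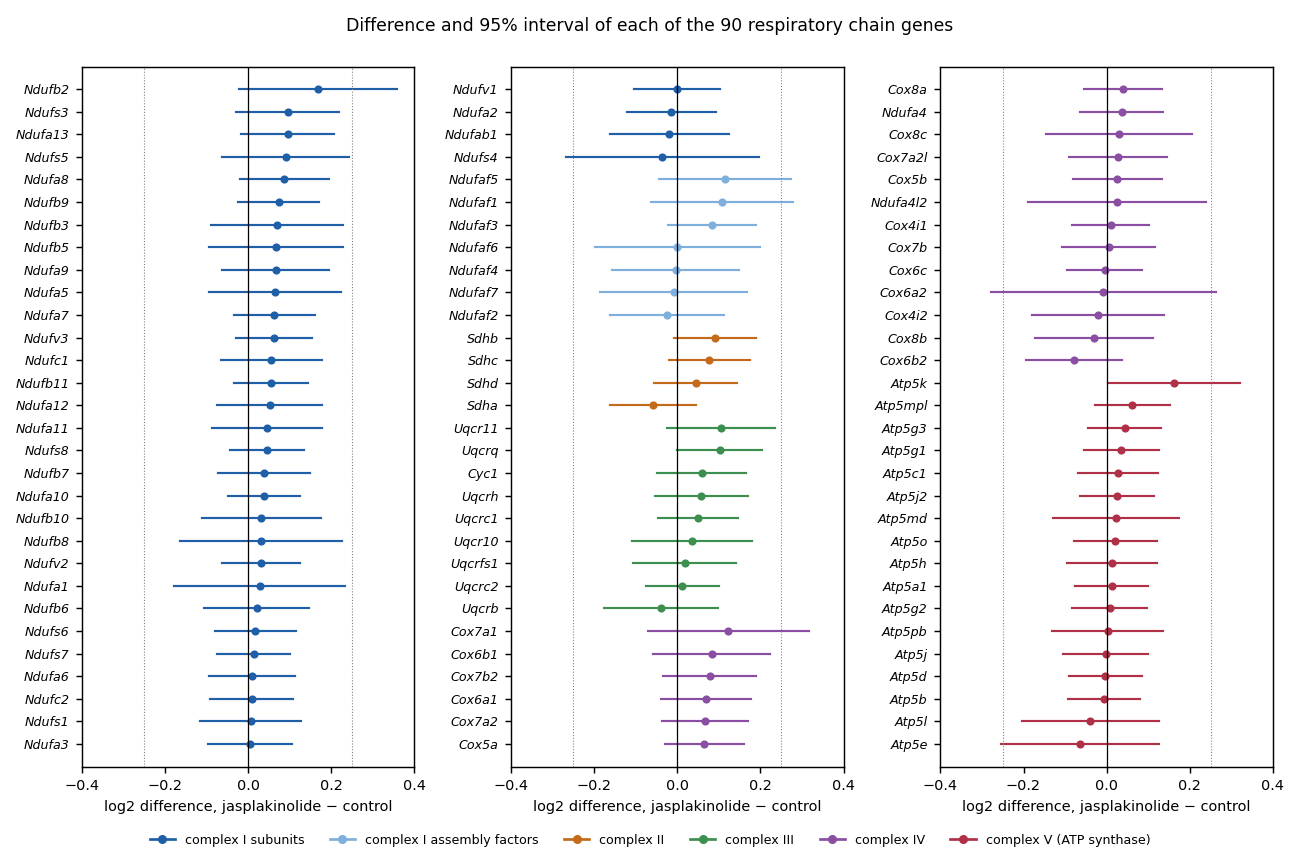
Log2 difference (jasplakinolide minus control) of each of the 90 genes as a point, with limma's 95% interval as a line, 4 arrays per group, coloured by complex and sorted within it from the highest to the lowest. Dotted lines mark -0.25 and 0.25; 82 intervals lie between them, and the interval of Atp5k, 0.0035 to 0.32, is the one that does not include 0.

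**Figure D2:**
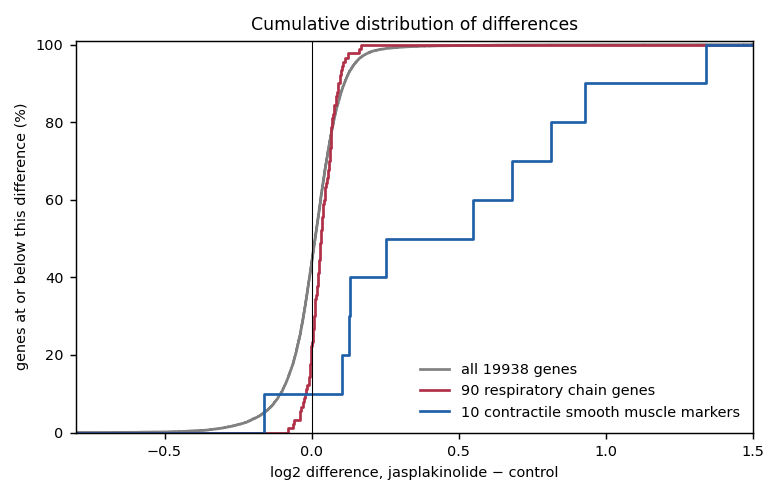
Cumulative share of genes (percent) by log2 difference for all 19938 genes, the 90 respiratory chain genes and 10 contractile smooth muscle markers. The 90 genes span -0.079 to 0.17, while the smooth muscle markers reach 1.34. The few genes beyond the ends of the axis are not drawn.

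Taken by sign, the mean was higher with jasplakinolide in 70 of the 90 genes (77.8%) and lower in 20, compared with 56.4% higher among all genes and 50.2% among the brighter 50%. The genes are not independent of each other, and the size of the shift, a median of 0.031 log2, can be read against the arrays. The median deviation of the 90 genes from their own means over the 8 arrays was 0.015, -0.050, 0.0021 and -0.033 on control arrays 1 to 4, and 0.035, 0.027, 0.025 and -0.015 on jasplakinolide arrays 1 to 4. The groups overlapped, since control 1 lay above jasplakinolide 4. Between arrays of the same number, the treated array was higher in all 4 pairs, by 0.020, 0.077, 0.023 and 0.018 for numbers 1 to 4. For all genes these differences were 0.012, -0.0061, 0.015 and 0.012. The labels do not state this pairing. Across genes, control 2 correlated more with jasplakinolide 4 (0.52) than with jasplakinolide 2 (0.24) in deviations from group means. The 4 treated arrays lay above the 4 control arrays in 6 of the 90 genes (Ndufa10, Ndufb9, Sdhb, Sdhc, Atp5g3 and Atp5mpl), against 3.62% of all genes. The treated arrays lay below the control arrays in 0, against 3.29% of all genes. Among the 9969 genes of the brighter 50%, the treated arrays lay above in 560 and below in 528. After the arrays were centred on their medians, the median difference of the 90 was 0.025, and 66 had a higher mean with jasplakinolide.

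**Figure D3:**
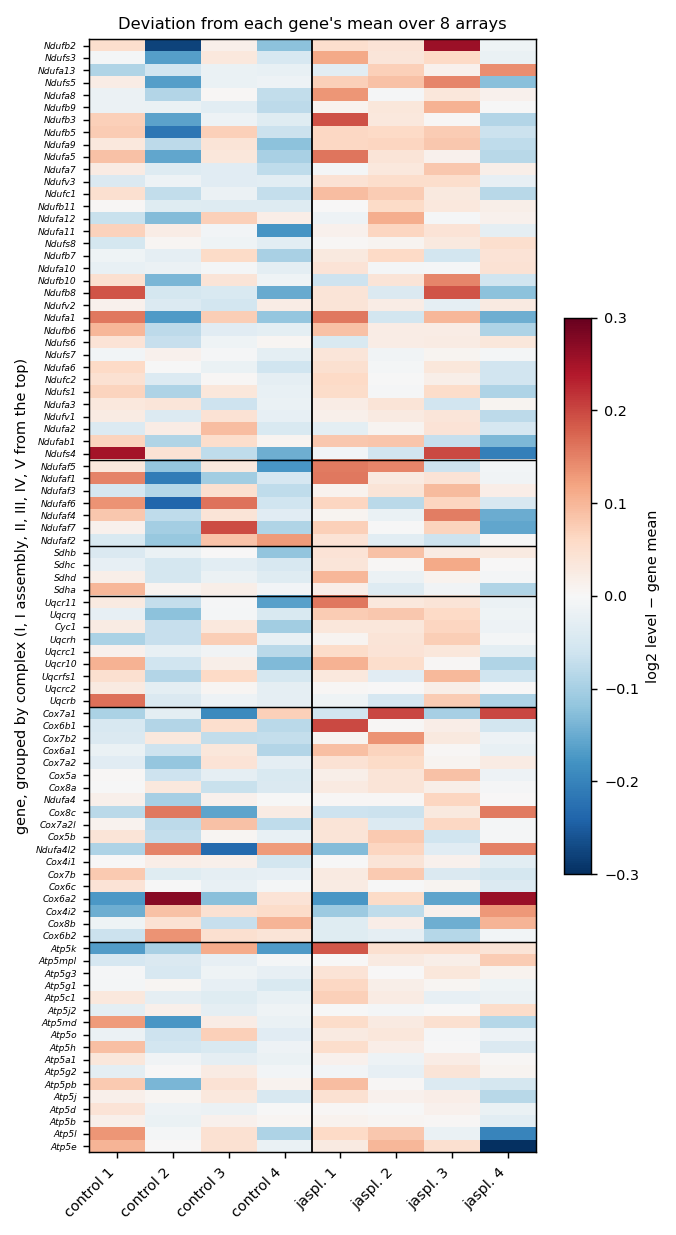
Deviation of each gene's log2 level from its mean over the 8 arrays (colour, -0.3 to 0.3), with the 90 genes in rows by complex and the arrays in columns. Control 2 or jasplakinolide 4 holds the lowest value (blue) of 50 of the 82 genes other than the restricted isoforms of complex IV. They hold the highest (red) of 7 of those 8 isoforms. Of all genes, 36.3% have their lowest and 37.3% their highest value on these arrays. Of the 50 lowest values, 31 are on control 2 (16.22% of all genes) and 19 on jasplakinolide 4 (20.05%).

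Many of these genes are known for NRF1 sites near their start, so the sequence before the start is shown for 4 of them. Promoter windows of 300 bases (250 before and 50 after the start, RefSeq, build GRCm38.p6) were at hand for 73 of the 90 genes. The stretches below are the 100 bases just before the start, written 5′ to 3′ in the direction of the gene, for the 3 named genes with a capitalised motif there (Atp5k, Sdhb and Uqcr11) and for Cox7a1, a restricted isoform with none. Capitals mark the core of the NRF1 site (GCATGCGC, on either strand, overlapping matches joined) in Atp5k and Sdhb, and the GABPA site (CCGGAAGT) in Uqcr11. The coordinates are chr5:108434400-108434499 on the minus strand for Atp5k, chr4:140961171-140961270 on the plus strand for Sdhb, chr10:80406822-80406921 on the minus strand for Uqcr11 and chr7:30184071-30184170 on the plus strand for Cox7a1.
Atp5k: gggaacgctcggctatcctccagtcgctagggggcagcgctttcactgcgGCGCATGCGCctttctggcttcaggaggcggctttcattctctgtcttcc
Sdhb: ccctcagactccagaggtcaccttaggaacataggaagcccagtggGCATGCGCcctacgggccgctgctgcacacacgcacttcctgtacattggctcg
Uqcr11: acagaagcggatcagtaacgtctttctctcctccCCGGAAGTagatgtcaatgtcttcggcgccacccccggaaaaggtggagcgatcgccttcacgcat
Cox7a1: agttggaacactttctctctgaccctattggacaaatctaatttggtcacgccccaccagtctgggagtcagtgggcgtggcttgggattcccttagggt

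Over all 73 windows, both strands searched, the NRF1 core was found in 12 genes (16.4%), against 4.29% of the 15563 tested genes with a window and 3.05% of all 27025 genes in the table. Its first match lay between position -240 (Atp5l) and position 31 (Uqcrc1) relative to the start. In Uqcr11 it began at position -4 and spanned the start itself. The stretch shown thus ends within this match, which is not capitalised there. The YY1 site (AAGATGGCG) was found in 7 genes (9.59%, against 2.29% of tested genes), in 6 of them after the start. The GABPA site as spelled here was found in 5 genes (6.85%, against 6.03%). The CArG box, the element bound by serum response factor, was found in 0 of the 73, against 1.63% of tested genes. Median GC content was 58.0% in the members' windows and 57.7% in those of tested genes. In all, 23 of the 73 genes held an NRF1, GABPA or YY1 match. The share of tested genes with any of these motifs was not counted, so this count has no background. A match of letters is not a binding site, and a window with none says nothing of the factor.

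**Figure D4:**
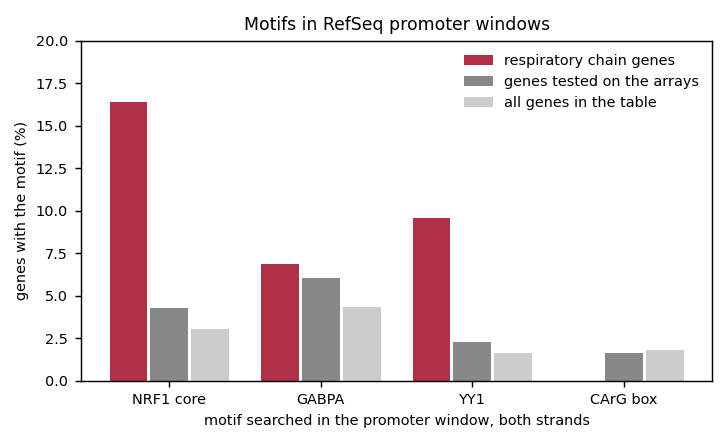
Percent of genes with each motif in any of their 300-base RefSeq promoter windows, for the respiratory chain genes (73 with a window), the genes tested on the arrays (15563) and all genes of the table (27025). The NRF1 core stands at 16.4% of respiratory chain genes and 4.29% of tested genes, and the CArG box at 0% and 1.63%.

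Complex I, which oxidises NADH, is the largest complex of the chain. Its 6 measured core subunits, the ones with counterparts in bacteria, had a median difference of 0.022. They ran from -0.0009 for Ndufv1, which binds NADH, to 0.095 for Ndufs3. Ndufv1 read 10.50, 10.44, 10.52 and 10.46 on control arrays 1 to 4 and 10.49, 10.51, 10.52 and 10.40 on jasplakinolide arrays 1 to 4. Its groups overlapped, with the lowest value on jasplakinolide 4. Ndufs1, a core subunit with iron-sulphur clusters, differed by 0.0062 (95% interval -0.12 to 0.13).

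The 28 accessory subunits of complex I, which surround and stabilise the core, had a median of 0.049, and the mean was higher in 25 of them. The largest difference among the 90 genes was that of the accessory subunit Ndufb2, with 8.22, 7.89, 8.19 and 8.05 on the control arrays and 8.22, 8.21, 8.42 and 8.16 on the jasplakinolide arrays. The groups overlapped, control 2 being the lowest array and jasplakinolide 3 the highest. The difference was 0.17 ± 0.08 (SE), 1.12-fold, with an adjusted p of 0.649 (0.262 with the replicate block). Ndufa13, also known as GRIM-19, differed by 0.095 ± 0.049 (SE, adjusted p = 0.665).

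The 7 complex I assembly factors, which help to build the complex without staying in it, had a median of -0.0004. Ndufaf5 differed by 0.11, Ndufaf1 by 0.11 and Ndufaf3 by 0.083, with adjusted p-values of 0.747, 0.797 and 0.700. Ndufaf1 read 10.10, 9.74, 9.85 and 9.90 on the control arrays and 10.11, 9.98, 9.99 and 9.94 on the jasplakinolide arrays. The groups overlapped, since control 1 lay above 3 of the treated arrays, while control 2 was lowest.

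Complex II, succinate dehydrogenase, belongs to both the respiratory chain and the tricarboxylic acid cycle. Sdhb, its iron-sulphur subunit, read 10.63, 10.66, 10.68 and 10.56 on the control arrays and 10.72, 10.77, 10.70 and 10.70 on the jasplakinolide arrays. The treated arrays all lay above the control arrays, by 0.090 ± 0.044 (SE) on average, yet the gene did not pass (adjusted p = 0.625). Sdhc, a membrane anchor that binds ubiquinone, read 11.25, 11.23, 11.25 and 11.23 against 11.31, 11.28, 11.39 and 11.28, again without overlap, and differed by 0.077 ± 0.043 (SE, adjusted p = 0.693). The other anchor, Sdhd, differed by 0.044. The flavoprotein Sdha, which oxidises succinate, had the opposite sign, -0.059 ± 0.046 (SE, adjusted p = 0.826). Its groups overlapped, and its highest value was on control 1 (11.80) and its lowest on jasplakinolide 4 (11.61).

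Complex III passes electrons from ubiquinol to cytochrome c. Of its 9 genes 8 had a higher mean and 1, Uqcrb, a lower one, with a median of 0.050. The catalytic subunits, cytochrome c1 (Cyc1) and the Rieske iron-sulphur protein (Uqcrfs1), differed by 0.059 and 0.017, and the core protein Uqcrc1 by 0.050. The small subunit Uqcrq read 10.83, 10.73, 10.85 and 10.81 on the control arrays and 10.93, 10.94, 10.91 and 10.84 on the jasplakinolide arrays. Of the treated arrays, jasplakinolide 4 alone lay among the control values. The difference of 0.10 ± 0.05 (SE) had an interval of -0.0017 to 0.20 and an adjusted p of 0.579. Uqcr11, another small subunit, differed by 0.11 ± 0.06 (SE, adjusted p = 0.688).

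Complex IV, cytochrome c oxidase, has several nuclear-encoded subunits that come in a broadly expressed form and in one or more forms restricted to certain tissues. The 10 broadly expressed subunits had a median difference of 0.037. Cox4i1, the common form of subunit 4, read 11.10, 11.12, 11.11 and 11.04 on the control arrays and 11.10, 11.14, 11.11 and 11.07 on the jasplakinolide arrays. The groups overlapped, and the difference was 0.0096 (interval -0.083 to 0.10, 1.01-fold). The other common forms Cox6a1, Cox6b1, Cox7a2, Cox7b and Cox8a differed by 0.069, 0.083, 0.068, 0.0048 and 0.039, and Ndufa4 by 0.036, with adjusted p-values of 0.785 to 0.994. Cox7a2l, whose product has been linked to supercomplexes of complexes III and IV, differed by 0.028. Its part in these cells was not measured.

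The 8 restricted forms were Cox6a2, Cox7a1 and Cox8b, best known from striated muscle and, for the last pair, brown fat, Cox6b2, Cox7b2 and Cox8c, known from testis, Cox4i2, known from lung and as a hypoxia-responsive form, and Ndufa4l2, a target of hypoxia-inducible factors. Several were dim: of the 90 genes, Cox7b2 alone lay below the 95th percentile of the olfactory receptors, and 6 lay within 1 log2 unit above it (Cox6b2, Cox7a1, Cox8b, Ndufa4l2, Ndufaf5 and Ndufaf6). Cox7a1 read 6.82, 6.89, 6.72 and 6.99 on the control arrays and 6.86, 7.12, 6.82 and 7.12 on the jasplakinolide arrays. The groups overlapped, and the difference of 0.12 ± 0.09 (SE) did not pass (adjusted p = 0.797). Cox6a2 read 7.72, 8.16, 7.77 and 7.93 on the control arrays and 7.72, 7.95, 7.73 and 8.15 on the jasplakinolide arrays. One array of each group, control 2 and jasplakinolide 4, stood above the rest, while the group means differed by -0.0081 (adjusted p = 0.995).

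Across the restricted forms the arrays differed more than the groups. Control 2 and jasplakinolide 4 were singled out after the values were seen, so counts on them are a description only. Control 2 or jasplakinolide 4 gave the highest value in 7 of the 8, the exception being Cox7b2, and the lowest in 0. Among the other 82 genes these arrays gave the highest value in 5 and the lowest in 50. Of all genes, 37.3% had their highest and 36.3% their lowest value on these arrays. Of the 50 lowest values, 31 were on control 2 (16.22% of all genes) and 19 on jasplakinolide 4 (20.05%). The excess over all genes was thus mainly on control 2. Control 4 also held the lowest value of 19 of the 90 genes, against 8.39% of all genes. The median deviation of the 8 restricted forms was 0.11 on control 2 and 0.14 on jasplakinolide 4, and from -0.099 to 0.048 on the remaining arrays. The median olfactory receptor signal was also highest on these arrays, 5.04 and 5.05 log2, with 4.91 to 4.97 elsewhere, and its part in these values was not tested. Without control 2 and jasplakinolide 4, 0 of the 90 genes passed and the median difference of the 90 was 0.032. The group differences of the 8 forms, -0.079 to 0.12, did not pass the test (adjusted p 0.764 to 0.995). By value they were -0.022 for Cox4i2, -0.079 for Cox6b2, 0.078 for Cox7b2, -0.031 for Cox8b, 0.029 for Cox8c and 0.026 for Ndufa4l2.

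**Figure D5:**
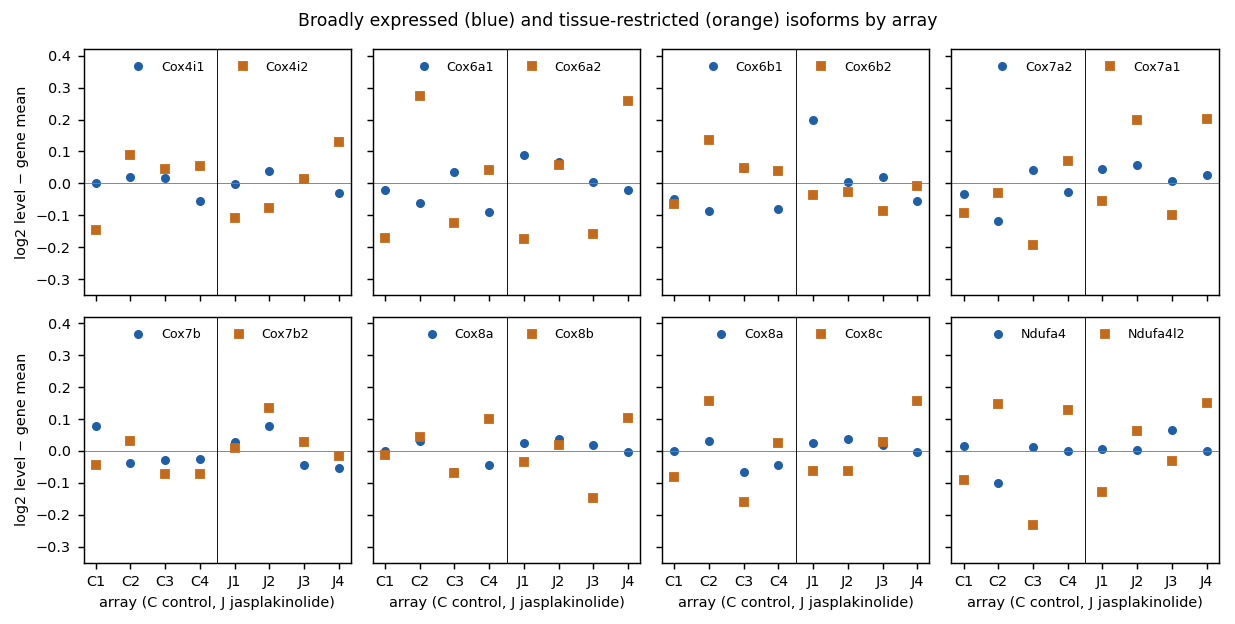
Log2 level minus the gene's mean for pairs of complex IV isoforms on the 4 control (C1 to C4) and 4 jasplakinolide (J1 to J4) arrays, with the broadly expressed form as blue circles and the tissue-restricted form as orange squares. Cox6a2 is high on C2 and J4 (8.16 and 8.15 log2, with 7.72 to 7.95 on the remaining 6), while Cox6a1 ranges from 11.43 to 11.61.

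Complex V makes ATP in its F1 head, driven by the turning of a ring of c subunits in the membrane. The 5 genes of the F1 head had a median of -0.0031. Atp5b, the catalytic beta subunit, read 13.15, 13.12, 13.15 and 13.14 on the control arrays and 13.15, 13.14, 13.14 and 13.11 on the jasplakinolide arrays. The groups overlapped, with a difference of -0.0069 and an interval of -0.094 to 0.080. Atp5a1, the alpha subunit, differed by 0.012 (interval -0.076 to 0.10), and Atp5e, the epsilon subunit, by -0.064 ± 0.085 (SE), with jasplakinolide 4 at 9.23 and all other arrays at 9.51 to 9.63. The 3 genes of the c subunit (Atp5g1, Atp5g2 and Atp5g3) had a median of 0.036 and the 4 of the peripheral stalk, which holds the head in place, 0.0079.

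Among the 5 small membrane subunits of complex V, which take part in joining the enzyme into dimers, Atp5k (subunit e) read 8.82, 8.89, 9.10 and 8.82 on the control arrays and 9.18, 9.04, 9.04 and 9.03 on the jasplakinolide arrays. Control 3 lay above 3 of the treated arrays, so the groups overlapped. The difference was 0.16 ± 0.07 (SE), 1.12-fold, with an unadjusted p of 0.046 and an adjusted p of 0.544 (limma; 0.342 with the replicate block). Atp5mpl read 10.44, 10.44, 10.46 and 10.48 against 10.49, 10.52, 10.51 and 10.56, without overlap, and differed by 0.062 ± 0.040 (SE, adjusted p = 0.772). Ndufa10, Ndufb9 and Atp5g3, singled out after their values were seen because their groups did not overlap either, differed by 0.038, 0.074 and 0.043.

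Several of these genes have processed pseudogenes, and 17 of the 90 had more than 1 probe set, up to 6 for Atp5l. The probe set with the highest mean was used. The other 25 probe sets of these genes differed by -0.044 to 0.073, 0 of them passed the test, and 22 had the sign of the one that was used. Signal from near-identical copies cannot be separated from that of the gene.

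The wider mitochondrial programme was described with lists of related genes. Among 17 genes of the tricarboxylic acid cycle and pyruvate dehydrogenase 0 passed, with a median of 0.015, and the largest differences were those of Idh2 (-0.18 ± 0.10, SE) and Dlat (0.11 ± 0.05), a pyruvate dehydrogenase subunit. Among 20 genes of complex IV assembly 0 passed, with Surf1 at 0.13 and Coa6 at 0.12, and among 15 of complex II, III and V assembly or ATP synthase inhibition 0 passed, with Tmem70 at 0.12 and Ttc19 at 0.12. Among 77 mitochondrial ribosomal proteins (median 0.014; Mrpl24 0.12, Mrps26 0.11) and 24 import proteins (median 0.036; Timm17a 0.17, Timm8a2 0.13) 0 passed. The transcripts COX2 and ND3, the only mitochondrially encoded subunits with a value, differed by -0.038 and -0.034. Among 18 carriers, porins and creatine kinases 0 passed (Ckmt2 0.16, Mpc1 0.15), and among 9 mitochondrial antioxidant genes 0 passed (Glrx2 0.17, Sod2 -0.11).

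Of 22 regulators of mitochondrial biogenesis 0 passed, with a median of -0.0075. Ppargc1a, which encodes the coactivator PGC-1 alpha, had means of 6.61 ± 0.07 in control and 6.41 ± 0.10 log2 with jasplakinolide (SD, n = 4 each), a difference of -0.20 ± 0.06 (SE, limma adjusted p = 0.261), at a signal below the 95th percentile of the olfactory receptors. Ppargc1b differed by 0.12, Nrf1 by 0.037, Gabpa by -0.016, Esrra by -0.050, Tfam by -0.066 and Esrrb by 0.13. Of 18 genes of glycolysis and lactate transport 1 passed. Pfkp, the platelet form of phosphofructokinase, rose from 9.13 ± 0.10 to 9.45 ± 0.02 log2 (SD, n = 4 each), by 0.32 ± 0.05 (SE, limma adjusted p = 0.0347). It missed the threshold without any 1 of 6 arrays (control 1 or 4, or jasplakinolide 1, 2, 3 or 4; adjusted p 0.0888 to 0.131), without control 2 and jasplakinolide 4 together (0.0755), and after median centring (0.0796). Ldhb, a subunit of lactate dehydrogenase singled out after its values were seen, had the lowest difference of the list, -0.32 ± 0.06 (SE), with a limma adjusted p of 0.0504. With the replicate number as a block both genes passed, Pfkp at 0.0314 and Ldhb at 0.0410. The list's median was 0.053.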

How the data were processed

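Gene expression of 4 control and 4 jasplakinolide samples was measured on Affymetrix arrays. The authors deposited log2 levels for 35556 probe sets. The submitters' processing notes name RMA and Affymetrix Expression Console; their versions were not given in the sources used here. Platform annotation gave 1 symbol to 21789 probe sets, several to 1621 and none to 12146. The brightest probe set per gene was kept, with no filter on dim genes. The difference between groups was tested two-sided by lmFit and eBayes (R 4.3.3, limma 3.58.1; 6 residual and 3.43 prior degrees of freedom), adjusted over all 19938 genes; the fit was tested on simulated data.

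Named were, per complex, the 3 largest differences, listed isoform pairs and core subunits, and, per related list, genes past the test or the 2 largest differences, and 6 regulators. Members and lists were chosen with earlier results of these data known. Same-numbered arrays correlated at 0.24 to 0.56 across genes in their deviations from group means (other pairs -0.62 to 0.52). The numbers were therefore taken to pair them, and the pairing comes from the data, not the labels. For control 2 the data do not bear it out, since it correlated at 0.24 with jasplakinolide 2 and at 0.52 with jasplakinolide 4. Results with the replicate number as a block rest on this pairing. Python 3.11.15 and matplotlib 3.10.9 made the figures.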

Additional observations from a re-analysis of the deposited data

Results flagged for a closer look

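In 10 of 138 groups of 4 values examined, 1 array stood apart from the other 3, where chance gives about 1 in 20. Among the members these were Cox7b on control 1 (12.80 log2, the other controls at 12.69 to 12.70), Ndufa4 on control 2 (10.38, against 10.48 to 10.50) and on jasplakinolide 3 (10.54, against 10.48 to 10.49), Atp5b on jasplakinolide 4 (13.11, against 13.14 to 13.15) and Atp5k on jasplakinolide 1 (9.18, against 9.03 to 9.04). Among related genes they were Coa6 on jasplakinolide 1 (7.97), Timm17a on control 1 (11.87) and Nrf1 on jasplakinolide 4 (8.86). The median deviation of the complex I subunits was -0.038 on jasplakinolide 4, against 0.033 to 0.040 on the other treated arrays, and that of complex IV was -0.0022 on control 2, against -0.023 to -0.020 on the other controls.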

How the results depend on the processing

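The count of respiratory chain genes past the test was 0 under all 20 alternatives: the replicate block, each array left out in turn, control 2 and jasplakinolide 4 left out together, cyclic loess, median centring, another quantile normalization, array weights, a robust prior with an intensity trend, only the brighter 75% or 50% of genes, averaging or separating the probe sets of a gene, and adjusted p under 0.01. The lowest adjusted p of any member was 0.163 (array weights), and 0 to 13 members had an unadjusted p under 0.05. Their median difference stayed between 0.022 and 0.046. Of the 38 named members 26 kept the sign of their difference under every alternative run for them (up to 18 each); the other 12 did not, and none of the 38 passed under any. The count over all genes, 154 in all, was 377 with the replicate block, 276 after a second quantile normalization, 299 after cyclic loess, 296 among the brighter 50%, 358 with an intensity trend, 457 with array weights, 45 at adjusted p under 0.01 and 43 to 150 with 1 array left out; the cause was not tested. Timm17a passed with array weights (adjusted p = 0.0449) and Glrx2 with an intensity trend (0.0283). The number of arrays, and for dim genes the signal over background, limits what could be seen.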
